A study of Homo sapiens with 7 samples.

Results

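Clustered sites are those whose nearest neighbour on the same chromosome lies at most 10000 bases away, measured from the end of the left site to the start of the right one. Of 5782 sites in the authors' count table, 840 (14.5%) met this rule, and the 25 sites of chromosome Y were kept out of it. The rule itself uses positions only, and read counts were compared between clustered sites and the other 4942. How the authors chose the sites was not given, so whether reads entered through their positions is not known. The rule was also set with earlier results of these data known. Chains of sites with gaps up to the same limit formed 372 clusters, of which 327 held 2 sites, 29 held 3 and 16 held 4 or more.

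The data came from CUT&RUN with an antibody against HA in Rh4 cells, a human alveolar rhabdomyosarcoma line that carries PAX3-FOXO1-FKBP. In CUT&RUN, a nuclease tethered to an antibody cuts the DNA around a bound protein, and the released fragments are sequenced. All 6 libraries used here came from crosslinked cells: 2 from cells given DMSO, 2 from cells given 500 nM dTAG47 for 2 h and 2 from cells given it for 4 h. The controls thus carried the same tagged fusion as the treated cells, and no library came from cells without the tag or from a control antibody. Whether the cells were 1 clone or a pool, and whether replicates came from separate cultures, was not given, so p-values measure only the spread between libraries.

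PAX3-FOXO1 is a fusion transcription factor that keeps the DNA-binding domains of PAX3 and the transactivation domain of FOXO1, and it is the driver of most alveolar rhabdomyosarcoma. It binds mainly at distal enhancers, often beside myogenic factors, and enhancers bound at several nearby positions are known from genes that define the identity of these tumour cells. The FKBP tag is bound by dTAG47, which also binds an E3 ubiquitin ligase and so leads to degradation of the tagged protein. Comparing treated cells with DMSO asks how much of the HA signal at each site depends on the fusion being present.

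Each site spanned 400 bases from start to end. The median gap from a clustered site to its nearest neighbour was 5505 bases, from 327 to 9985, against 97149 bases for the other sites. Clusters spanned 1127 to 56007 bases, with a median of 7201.5. By chromosome, the clustered share ran from 8.78% of sites on chromosome 5 (28 of 319) to 25.8% on chromosome 16 (42 of 163). The pairs just inside the limit were chr3:69472696-69473096 with chr3:69483081-69483481, 9985 bases apart, and chr17:42173054-42173454 with chr17:42183419-42183819, 9965 apart. Just outside it were chr13:97709591-97709991 with chr13:97719993-97720393, 10002 apart, and chr16:18880524-18880924 with chr16:18890933-18891333, 10009 apart. Their relative log2 changes at 4 h, as defined below, were -0.28 and 0.50, then -0.05 and -0.59 inside the limit. Outside it they were -1.48 and 0.53 for the first pair and -1.18 for the left site of the second, whose right site had too few reads to be tested. The table names no genes, and sites are given by hg19 position.

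Over the whole table, reads in sites totalled 226067 in DMSO library A and 380057 in library B, 228300 and 110440 after 2 h, and 151360 and 156845 after 4 h. The 4 h columns differed by no more than counting noise at clustered sites (chi-square per degree of freedom 0.999, p = 0.497), while the DMSO columns (4.72) and the 2 h columns (3.94) differed by more. The 4 h columns were therefore counted as 1 sample in means and in n, although the tests across sites kept both. Reads outside the sites were not counted, so a change in total reads in sites cannot be told apart from a change in sequencing depth. A pair of scales is used for this reason: raw counts, and counts relative to the typical site, for which each library was scaled on its total in sites with TMM factors. Calls are from edgeR's quasi-likelihood test over 5575 sites with enough reads, with Benjamini-Hochberg adjusted p under 0.05. That filter kept 786 clustered sites and removed 54.

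Clustered sites held more reads per site than the others, with a median mean count over the 6 libraries of 31.9 against 24.2, and 11 of the 20 highest sites of the table were clustered. Their summed counts were 49643 and 72415 in DMSO, 50172 and 29680 after 2 h, and 37615 and 38364 after 4 h. The sums of both 4 h columns were lower than those of both controls, whereas the 2 h libraries lay on either side of DMSO A. The mean at 4 h was 0.622 times the DMSO mean for clustered sites and 0.480 times for the other sites. As a share of all reads in sites, clustered sites held 22.0% and 19.1% in DMSO, 22.0% and 26.9% after 2 h, and 24.9% and 24.5% after 4 h. The share was 20.5% ± 2.05 (SD, n = 2) in DMSO and 24.4% ± 3.46 (SD, n = 2) at 2 h, a difference of 3.92 percentage points. At 4 h it was 24.7%, or 4.15 points above DMSO. Both differences had p = 0.333 in a two-sided exact permutation test of 2 columns against 2, which is the smallest p this design allows. Without the 20 highest sites of the table, the differences were 1.82 points at 2 h and 1.93 at 4 h. Without DMSO library B they were 2.47 and 2.7 points, and without the second 2 h library the 2 h difference was 1.47.

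The larger share was not spread evenly over cluster sizes. Sites in clusters of 2 summed to 32899 and 53473 reads in DMSO, 33108 and 17217 after 2 h, and 23041 and 23650 after 4 h. Sites in clusters of 4 or more, a limit chosen after the counts had been seen, summed to 9432 and 8925 in DMSO, 9425 and 7853 after 2 h, and 8834 and 8871 after 4 h. The largest of these last 6 sums was 9432 and the smallest 7853, while the total of the other sites ran from 80760 to 307642. The ratio of DMSO B to DMSO A, which share a treatment, was 0.946 for clusters of 4 or more, 1.37 for clusters of 3, 1.63 for clusters of 2 and 1.74 for sites outside clusters. The ratio of 4 h to DMSO followed the reverse order, at 0.964, 0.668, 0.541 and 0.480. DMSO B is part of both ratios, so the reverse order is in part built in. Both are ratios of sums, in which sites with many reads weigh most. The pair chr1:121478615-121485390 alone held 4844 and 4498 reads in DMSO and 4723 and 4719 at 4 h. Among clusters of 3, chr7:61968821-61976170 held 2831 and 2519, then 2565 and 2702. The median ratio of DMSO B to A over tested sites was 0.923, 1.68, 1.76 and 1.73 in the same order. By site, only clusters of 4 or more thus stood apart. Clusters of 4 or more thus differed from the other sites between the control libraries as well as between treatments.

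**Figure D1:**
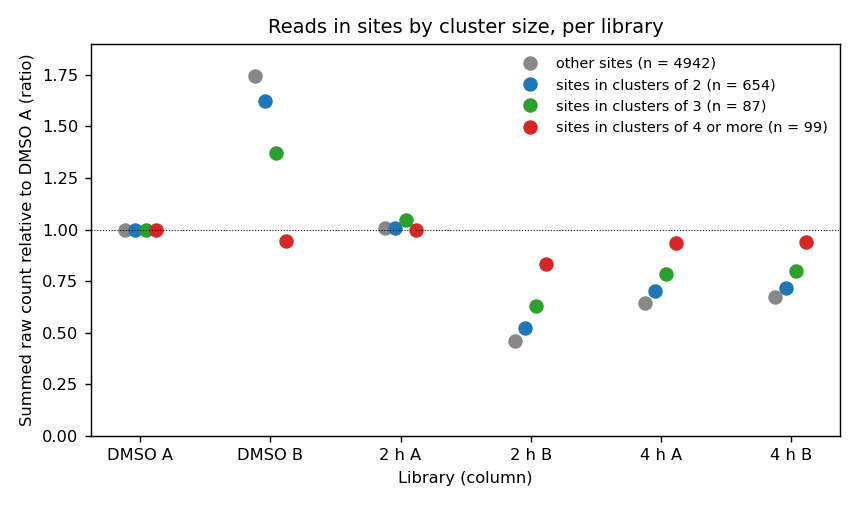
Summed raw counts of each size class of sites in each library, divided by the sum in DMSO A (linear axis from 0, 1 point per class and library). Sites in clusters of 4 or more stay between 0.833 and 1, while sites outside clusters run from 0.458 in 2 h B to 1.74 in DMSO B.

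At single sites, the variance of the 6 raw counts divided by their mean had a median of 7.70 for other sites, 10.2 for clusters of 2, 10.1 for clusters of 3 and 1.5 for clusters of 4 or more. A value near 1 is what counting noise alone gives to counts with 1 common mean. Of the 16 clusters with 4 or more sites, 13 had a DMSO B to A ratio under 1.25, a limit also set after the values were seen. Their 86 sites summed to 8771 and 7824 reads in DMSO, 8689 and 7487 after 2 h, and 8346 and 8352 after 4 h, with a median variance over mean of 1.29. The 13 sites of the remaining 3 clusters summed to 661 and 1101, 736 and 366, and 488 and 519, with a median of 7.21. The DMSO counts that set the limit are among the 6 counts of this variance. The contrast of 1.29 with 7.21 thus follows in part from the selection. Ratios under 1.25 were also found in 28 of 327 clusters of 2 and in 3 of 29 clusters of 3. Where these clusters lie relative to centromeres, repeats or assembly gaps was not tested.

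**Figure D2:**
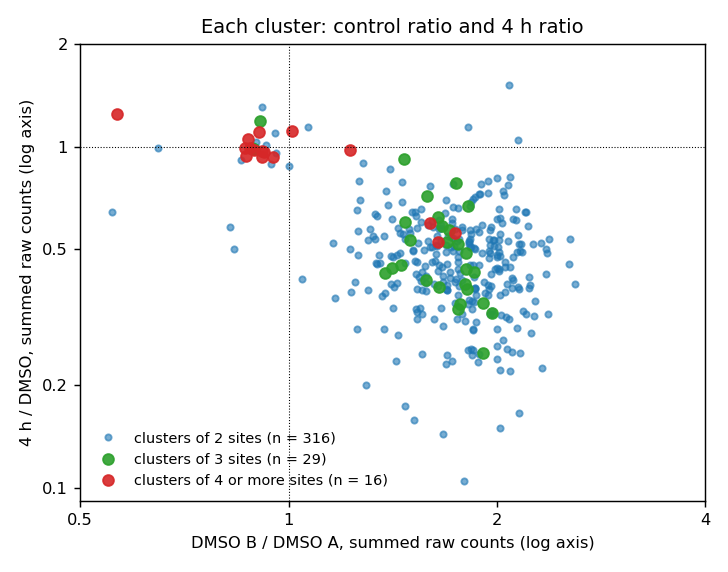
Each point is 1 cluster with at least 20 summed DMSO reads: summed raw count in DMSO B over DMSO A (x, log axis) against 4 h over DMSO (y, log axis). Of the 16 clusters of 4 or more sites, 13 lie at a control ratio under 1.25 and near 1 on the vertical axis, and 3 lie among the clusters of 2 and 3. DMSO B enters both axes, so a falling trend is in part built in.

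The 6 clusters with the most sites, with a tie for the last place settled by DMSO reads, were all of the near-constant kind. At chr2:92269319-92325326, 13 sites over 56007 bases held 1721 and 1515 reads in DMSO, 1629 and 1524 after 2 h, and 1594 and 1616 after 4 h. At chr2:133012561-133039297, 12 sites held 2168 and 1894, 2265 and 1878, and 2130 and 2152. At chr10:42385022-42400680, 9 sites held 1133 and 1043, 1072 and 946, and 1044 and 1049. In all 3 clusters the groups overlapped, and library B of DMSO was the lower control, opposite to the library totals. The 7 sites of chr16:33950138-33974363 held 640 and 586, 611 and 520, and 578 and 612 reads. The 7 of chr16:46416984-46435493 held 311 and 285, 310 and 268, and 299 and 257, and the 6 of chr11:51569914-51591135 held 797 and 721, 838 and 642, and 823 and 853. The tied cluster, chr1:121351794-121362823, also had 6 sites and held 46 and 41, 43 and 51, and 42 and 43. Of these 7 clusters, only in the chr11 cluster did both 4 h columns exceed both DMSO libraries in raw counts. Within the chr10 cluster, the site at its left end, chr10:42385022-42385422, held 418 and 386, 398 and 349, and 372 and 399 reads. Another of its sites, chr10:42388189-42388589, held 24 and 28, 21 and 28, and 21 and 19, so sites of very different height kept their own level in every library.

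On the relative scale, steady raw counts in libraries with fewer site reads appear as rises. As summed units in edgeR's quasi-likelihood test, the chr2 clusters had relative log2 changes at 4 h of 0.98 (SE 0.436, adjusted p = 0.136) and 1.07 (SE 0.473, adjusted p = 0.134). The chr11 cluster reached 1.14 (SE 0.342) with an adjusted p of 0.0172. Of the 16 clusters with 4 or more sites, 6 rose at 2 h and 9 rose at 4 h, and none fell. Over all 5155 units tested, clusters and sites outside them, 3.16% rose and 5.08% fell at 2 h. At 4 h, 5.41% of all units rose and 7.35% fell. The median raw log2 change at 4 h of the sites in clusters of 4 or more was -0.06, and none of these sites passed the test on raw counts. Over all sites tested, the raw test at 4 h called 6.19% lower and 0 higher. Differences in depth stay in that test. Its estimated coefficient of variation between libraries was 38.7%, against 11.6% on the relative scale. Not passing it therefore does not show that counts were steady.

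The 3 exceptions, named after their values were seen, were chr3:8525090-8548739, chr15:58732451-58752216 and chr16:21513257-21529860. The 5 sites of the chr3 cluster held 297 and 516 reads in DMSO, 305 and 135 after 2 h, and 210 and 243 after 4 h. The 4 sites on chromosome 15 held 297 and 475, 370 and 191, and 233 and 228. The 4 on chromosome 16 held 67 and 110, 61 and 40, and 45 and 48. In each of the 3 clusters both 4 h sums were lower than both control sums, and DMSO B was the highest library. That DMSO B exceeded DMSO A in them follows from the limit that set them apart. None of the 3 passed the relative test at 4 h as a summed unit, with log2 changes of 0.27, 0.36 and 0.18. One site of the chr3 cluster rose relative to the typical site at 4 h: chr3:8543163-8543563, with 57 and 94, 61 and 25, and 48 and 60 reads (relative log2 0.62, SE 0.205, adjusted p = 0.0425).

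**Figure D3:**
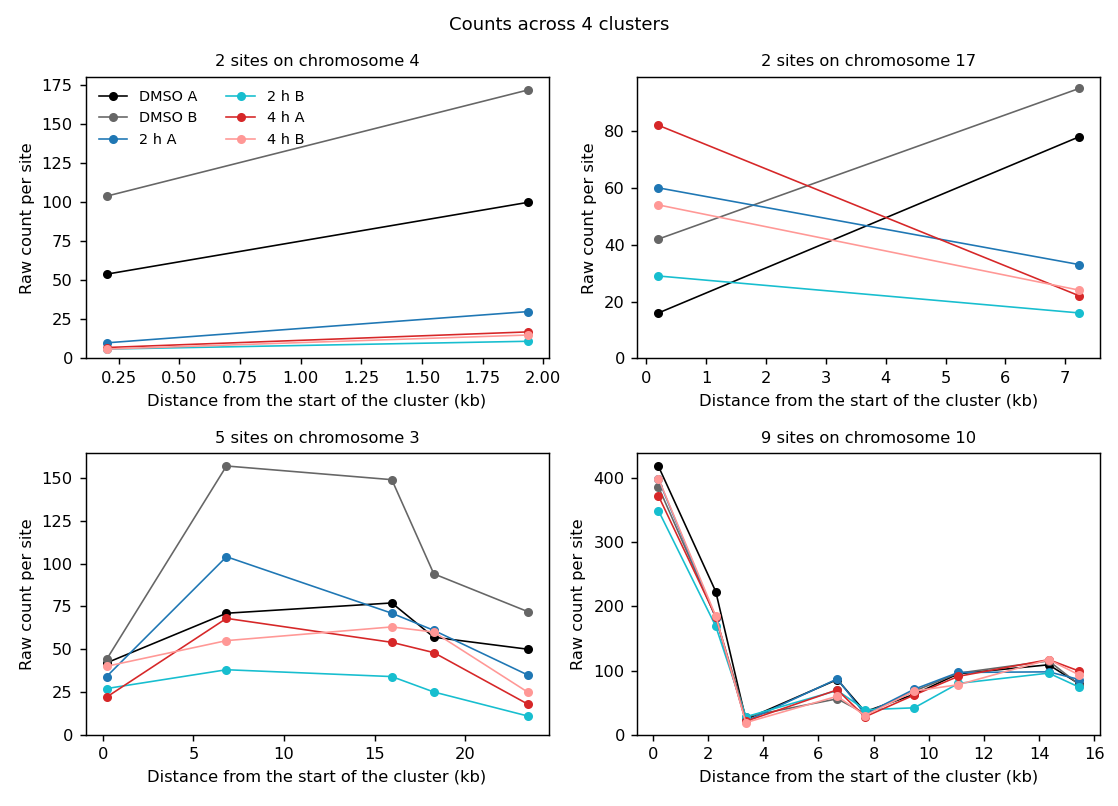
Raw count per site (y, linear from 0) against the distance of the site from the start of its cluster in kb (x), 1 line per library, in 4 clusters. The pair on chromosome 4 is lower in all 4 treated columns, the left site on chromosome 17 is high where the right is low, the 5 sites on chromosome 3 separate by library, and the 9 sites on chromosome 10 overlap in all 6 libraries.

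The sites with the highest DMSO counts showed the same steadiness. The highest, chr1:121484990-121485390, held 4842 and 4496 reads in DMSO, 4740 and 4330 after 2 h, and 4720 and 4715 after 4 h. Its only neighbour, chr1:121478615-121479015 at 5975 bases, held 2 to 4 reads per library. Next came chr7:61968821-61969221, in a cluster of 3, with 2639 and 2368, 2671 and 2297, and 2413 and 2540. At both sites the treated and control counts overlapped. The remaining 3 were in clusters of 4 or more: chr2:92269319-92269719 (825 and 735, 754 and 748, 721 and 784), chr18:18518819-18519219 (802 and 726, 800 and 662, 774 and 739) and chr11:51579394-51579794 (469 and 426, 514 and 395, 499 and 512). Of the 5, only the chr11 site passed the relative test at 4 h (log2 1.17, SE 0.330, adjusted p = 0.016).

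Relative to the typical site, 32 clustered sites fell and 50 rose at 2 h, which is 4.07% and 6.36% of the 786 tested. Over all sites tested, 4.07% fell and 2.49% rose. At 4 h, 54 clustered sites fell (6.87%) and 90 rose (11.5%), where 6.73% of all sites fell and 4.72% rose. In this fit, falls were thus as frequent among clustered sites as in the table, and rises more frequent. The rises sat largely in clusters of 4 or more, where 32 of 85 tested sites rose at 2 h and 51 at 4 h, and edgeR called 0 lower. At 4 h, 69 of the 85 had an unadjusted p under 0.05 in either direction, and 3.53% had a log2 change under 0. Over all 5575 sites tested, 1417 had such a p and 48.0% had a log2 change under 0. In clusters of 2 or 3, with 701 tested sites, 32 fell and 18 rose at 2 h, and 54 fell and 39 rose at 4 h. The total of called clustered sites was sensitive to single libraries. At 2 h it was 82, and it became 126 without DMSO A, 18 without DMSO B and 38 without 2 h library B. At 4 h it was 144, and it became 50 without DMSO B, and 65 or 64 without 4 h column A or B. With scaling on totals alone, without TMM factors, 56 fell and 46 rose at 2 h and 87 fell and 73 rose at 4 h, and DESeq2 called 5 and 10 sites in all. These alternative counts are given without shares over all sites, so they do not compare clustered with other sites. Between 4 h and 2 h, edgeR called 0 of the 786 clustered sites (percent called over all sites 0). An unadjusted p under 0.05 was found at 59 of them, and at 321 of all 5575 sites. Among clustered sites, DESeq2 and limma-voom also called 0, with 5 and 60 at that unadjusted level.

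Median relative log2 changes of clustered sites were 0.07 at 2 h and 0.10 at 4 h, against -0.01 and 0.01 for other sites. By size at 4 h, the medians were 0.02 for clusters of 2, 0.09 for clusters of 3 and 0.98 for clusters of 4 or more. Without clusters of 4 or more, the difference in medians between clustered and other sites at 4 h was 0.00812, against 0.0883 with them.

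**Figure D4:**
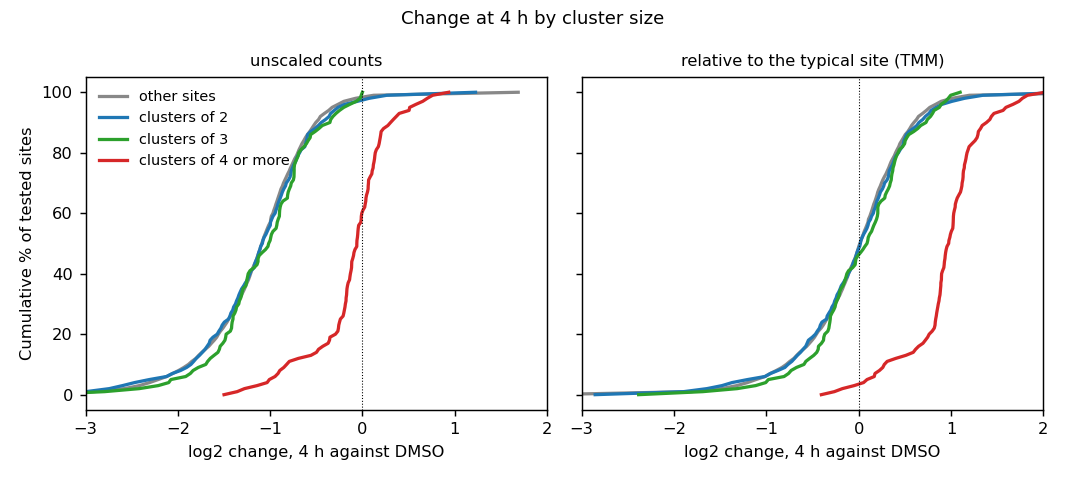
Cumulative percentage of tested sites (y) against the log2 change at 4 h relative to DMSO (x), on raw counts at left and relative to the typical site at right, 1 curve per size class. The curves of clusters of 2, clusters of 3 and other sites lie close together, with raw medians of -1.08, -1.02 and -1.09, and clusters of 4 or more lie to the right with a raw median of -0.06.

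Without any scaling, 589 of 786 clustered sites (74.9%, against 80.3% of all sites) had both 4 h counts under both control counts, and 17 (2.16%, against 0.807%) had both above. At 2 h the corresponding numbers were 364 below (46.3%, against 50.2%) and 7 above (0.891%, against 0.413%). In clusters of 4 or more, 20 of 85 sites had both 4 h counts below and 12 had both above. The edgeR test on raw counts called 4 clustered sites lower at 2 h (percent called over all sites 1.04) and 43 lower at 4 h (6.19), and 0 higher at either time (0). At an unadjusted p under 0.05, 107 of the 786 clustered sites differed at 2 h and 196 at 4 h in either direction. Of these 196, 2 were in clusters of 4 or more. Over all 5575 sites tested, 1042 differed at 2 h and 1569 at 4 h at that level. DESeq2 and limma-voom on raw counts also called 0 clustered sites higher. The 43 raw calls at 4 h became 0 without DMSO B or without either 4 h column, and 166 without either 2 h library. The 4 raw calls at 2 h became 242 without 2 h library A, 1 without 2 h library B, and 0 without DMSO B or either 4 h column. As shares of each library's reads in sites, 264 clustered sites were lower in both 4 h columns than in both controls (33.6%, against 34.8% of all sites) and 223 were higher (28.4%, against 19.0%). The 2 h libraries gave 243 lower (30.9%, against 32.8%) and 141 higher (17.9%, against 15.3%). Of the 85 tested sites in clusters of 4 or more, 68 were higher at 4 h by this measure and 1 was lower.

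Neighbouring sites are not independent, so each cluster was also tested once on its summed count, beside the sites outside clusters. Of 366 clusters tested, 23 fell and 23 rose at 2 h, where 5.08% of all units fell and 3.16% rose. At 4 h, 35 fell and 47 rose (all units 7.35% and 5.41%). Clusters of 2 gave 34 of the falls and 35 of the rises at 4 h. The 82 calls at 4 h became 30 without DMSO B and 32 or 31 without 4 h column A or B, and the 46 at 2 h became 7 without DMSO B and 18 without 2 h library B. Between 4 h and 2 h, edgeR called 0 clusters (percent called over all units 0), with 23 at an unadjusted p under 0.05. The number of all units at that level is not given here, so the 23 are not compared with other units.

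The largest fall of a whole cluster was at chr4:80074716-80076851, a pair whose sites are 1335 bases apart. Its summed counts were 154 and 276 in DMSO, 40 and 17 after 2 h, and 24 and 21 after 4 h. All 4 treated columns lay below both controls, and the sum at 4 h was 0.105 times that in DMSO. The relative log2 change was -1.96 at 2 h (SE 0.204, adjusted p = 4.89e-10) and -2.13 at 4 h (SE 0.214, adjusted p = 2.32e-11, edgeR). Both members fell: the left site, chr4:80074716-80075116, went from 54 and 104 reads to 7 and 6 at 4 h, and the right, chr4:80076451-80076851, from 100 and 172 to 17 and 15. Both also passed the test on raw counts at 4 h, with raw log2 changes of -3.58 (adjusted p = 0.00344) and -3.08 (adjusted p = 0.0122).

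Other pairs fell at both members. At chr2:105024864-105027451 the summed counts were 130 and 263 in DMSO, 52 and 22 after 2 h, and 32 and 27 after 4 h (relative log2 at 4 h -1.60, SE 0.207, adjusted p = 3.35e-08). At chr16:86802065-86806490 they were 104 and 174, 47 and 22, and 19 and 21 (-1.68, SE 0.226, adjusted p = 9.86e-08). At chr11:20243136-20249441 they were 118 and 179, 57 and 22, and 27 and 20 (-1.55, SE 0.222, adjusted p = 4.18e-07). In all 3 pairs every treated column was below both controls. In the chr11 pair the members differed at 2 h: chr11:20249041-20249441 went from 36 and 47 reads in DMSO to 3 and 4, while chr11:20243136-20243536 went from 82 and 132 to 54 and 18. By 4 h both had fallen, with relative log2 changes of -2.25 and -1.35. At 2 h the clusters with the largest falls also included chr8:145174086-145181000 (36 and 62 in DMSO, 17 and 6 at 2 h, relative log2 -1.14, adjusted p = 0.0138) and chr6:83451635-83460629 (70 and 109, 32 and 14, -1.01, adjusted p = 0.00317). The latter did not pass at 4 h, with 32 and 26 reads and an adjusted p of 0.122.

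More often a single member of a pair passed the test. At 4 h, 48 of 372 clusters held at least 1 falling site, and among the pairs 38 held 1 and 6 held 2. Counted by site, 6.87% of clustered sites fell at 4 h, against 6.73% of all sites tested. A cluster holds 2 or more sites, so the count per cluster cannot be set against these shares. At chr17:27375698-27378620, the right site, chr17:27378220-27378620, had 35 and 93 reads in DMSO, 16 and 2 after 2 h, and 2 and 6 after 4 h. This was the largest relative fall among clustered sites at 4 h (log2 -2.85, SE 0.431, adjusted p = 1.98e-05), and the pair as a unit fell by 1.46. Its left neighbour, 2122 bases away, had 38 and 64, 27 and 14, and 17 and 13, with a relative log2 of -0.66 and an adjusted p of 0.126. At chr2:227549336-227549736, counts were 33 and 56 in DMSO, 20 and 8 after 2 h, and 3 and 3 after 4 h (log2 at 4 h -2.75, SE 0.440, adjusted p = 4.27e-05). Its neighbour chr2:227552423-227552823, 2687 bases away, held 55 and 102, 71 and 26, and 38 and 32, with a relative log2 of -0.05. The groups separated at the first of these sites and the second stayed at the level of the typical site. A difference between neighbours was not itself tested.

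The same pattern was seen at chr3:31039839-31040239, the middle of 3 sites. It held 38 and 88 reads in DMSO, 19 and 9 after 2 h, and 6 and 5 after 4 h (log2 -2.38, SE 0.358, adjusted p = 1.80e-05), and its flanking sites had relative log2 changes of -0.31 and -0.14. At chr1:164488457-164488857, counts were 32 and 59, 19 and 11, and 6 and 2 (-2.37, SE 0.423, adjusted p = 0.000212), beside a neighbour at -0.42. At chr7:94925953-94926353 the fall was largest at 2 h, from 35 and 53 reads to 5 and 4, with 7 and 7 at 4 h (log2 -2.32 at 2 h, adjusted p = 0.000220, and -1.54 at 4 h, adjusted p = 0.00402). Its neighbour 6746 bases away stood at -0.05 and 0.01.

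Among the clusters that rose at 4 h, the smallest adjusted p was at chr14:32953653-32964258, with 2 sites 9805 bases apart. Its left site, chr14:32953653-32954053, held 39 and 67 reads in DMSO, 133 and 67 after 2 h, and 112 and 106 after 4 h. In raw counts 3 of the 4 treated columns exceeded both controls, and 2 h library B, the library with the fewest reads in sites, equalled DMSO B. The site rose relative to the typical site by a log2 of 1.87 at 2 h (SE 0.221, adjusted p = 2.60e-06) and 2.14 at 4 h (SE 0.218, adjusted p = 1.91e-08). In raw counts its change at 4 h was 1.04 (SE 0.698) and did not pass the test (adjusted p = 0.259). The right site, chr14:32963858-32964258, held 22 and 60, 55 and 18, and 34 and 33 reads and rose only on the relative scale (0.83 at 4 h, adjusted p = 0.0298). As a unit the pair had a relative log2 of 1.5 at 2 h (adjusted p = 8.47e-08) and 1.73 at 4 h (SE 0.188, adjusted p = 2.87e-10).

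In 1 cluster, chr17:51183505-51190942, 1 site rose and the other fell, at 2 h and at 4 h. The left site, chr17:51183505-51183905, held 16 and 42 reads in DMSO, 60 and 29 after 2 h, and 82 and 54 after 4 h (relative log2 at 4 h 2.34, SE 0.248, adjusted p = 3.40e-08). The right site, chr17:51190542-51190942, held 78 and 95, 33 and 16, and 22 and 24 (-0.83, SE 0.245, adjusted p = 0.0225). In DMSO the right site was the higher one in both libraries, and at 4 h the left site was the higher one in both columns. The raw log2 change of the left site at 4 h was 1.23 (SE 0.772, adjusted p = 0.240).

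Several other rises rested on few reads or on steady counts. The clusters chrX:61686562-61687689 (8 and 6 reads in DMSO, 8 and 17 at 4 h), chr8:46841414-46845194 (3 and 13, then 12 and 13), chr4:49636000-49642797 (9 and 6, then 12 and 11) and chr9:66455343-66458588 (12 and 11, then 13 and 17) had relative log2 changes at 4 h from 1.47 to 1.91. The first of them contained the closest pair of the table, 327 bases apart. At 2 h the largest rises after chr14 were chr17:22252017-22261659, chr2:90481965-90485524, chr17:45212941-45214536 and chr1:121351794-121362823, from 1.24 down to 1.09. The 4 sites of chr17:22252017-22261659 held 82 and 83 reads in DMSO, 115 and 84 after 2 h, and 88 and 95 after 4 h. Its left site, chr17:22252017-22252417, held 7 and 7, 18 and 10, and 14 and 13 (relative log2 at 4 h 2.02, SE 0.487, adjusted p = 0.00478). The cluster chr2:90481965-90485524 held 36 and 20, 33 and 35, and 16 and 20, and did not pass at 4 h (adjusted p = 0.495).

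Large clusters also supplied most of the remaining sites with the largest rises. At chr16:33950138-33974363 the site chr16:33950876-33951276 held 67 and 64 reads in DMSO, 88 and 79 after 2 h, and 98 and 89 after 4 h (relative log2 at 4 h 1.57, adjusted p = 7.08e-05). All 4 treated columns were above both controls there. Its neighbour chr16:33950138-33950538, 338 bases away, held 11 and 4, 6 and 10, and 10 and 15 (1.79, adjusted p = 0.0400). At chr16:46424694-46425094 counts were 45 and 56, 78 and 61, and 52 and 40, and at chr2:92305558-92305958 they were 56 and 39, 58 and 69, and 49 and 75. At chr2:92315963-92316363 they were 21 and 18, 27 and 19, and 34 and 26, and at chr1:121354119-121354519 they were 11 and 5, 14 and 8, and 15 and 11. Treated and control counts overlapped at each of these 4 sites at 1 time or both, and both 4 h counts exceeded both controls only at chr2:92315963-92316363.

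Neighbouring sites up to 10000 bases apart changed more alike than sites farther apart. Over 19 neighbouring pairs at most 1000 bases apart, Pearson's r between the relative log2 changes at 4 h was 0.847 and the median absolute difference 0.221. Over 5000 and up to 10000 bases (248 pairs) r was 0.465 and the difference 0.370, and beyond 100000 bases (3335 pairs) r was 0.049 and the difference 0.486. All pairs share the same 6 libraries, and the near-constant clusters contribute to the short distances, so these values describe the table and were not tested. Without clusters of 4 or more, r was 0.854 at up to 1000 bases (9 pairs), 0.740 over 1000 and up to 2000 bases (31 pairs), 0.398 up to 5000 bases (82 pairs) and 0.405 up to 10000 bases (234 pairs), so that the last of these bands were alike. Over all gaps up to 10000 bases it was 0.453 (356 pairs), against 0.089 for larger gaps (4977 pairs). Spearman's rho in the same narrower bands was 0.8, 0.575, 0.399 and 0.446 for changes at 4 h. For changes at 2 h rho was 0.883, 0.266, 0.312 and 0.272, so beyond the first band it did not fall steadily with distance. Over all gaps up to 10000 bases rho for 4 h was 0.476, against 0.091 for larger gaps. The lower mean count of a pair had a median of 25.3 and 19.2 in these groups. Whether read depth contributes to r was not tested.

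**Figure D5:**
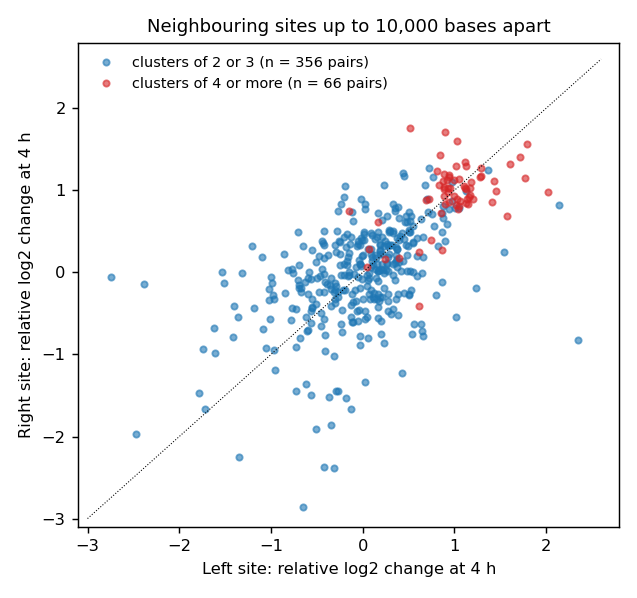
Relative log2 change at 4 h of the left site (x) and of the right site (y) for the 422 pairs of neighbouring tested sites up to 10000 bases apart, with the line of equal change. Pairs in clusters of 4 or more gather near 1 on both axes, and the 356 pairs in smaller clusters spread along the line with a Pearson's r of 0.453.

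Sites with a neighbour at most 1000 bases away had a median relative log2 at 4 h of 0.93, and 45.2% of the 42 tested rose while 0 fell. Over 1000 and up to 2000 bases the median was 0.26 with 20.9% rising and 9.89% falling, and over 5000 and up to 10000 bases it was 0.06 with 6.47% rising and 6.25% falling. Sites whose nearest neighbour was over 100000 bases away had a median of 0.00, with 3.98% rising and 6.76% falling. Of the 48 sites in the closest band, 24 were in clusters of 4 or more, and without such clusters the band's median was 0.55 with 14.3% of 21 tested sites rising. Over 1000 and up to 2000 bases, leaving out large clusters gave a median of 0.01, with 3.17% of 63 sites rising and 14.3% falling, so that falls outnumbered rises there. Up to 5000 bases it gave a median of -0.06, with 4.27% rising and 9.76% falling, and up to 10000 bases 0.04, with 5.96% and 6.40%.

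Since clustered sites had more reads, calls were also counted in 3 classes of equal size by mean count over all tested sites. In the highest class, 28 of 398 clustered sites fell at 4 h (7.04%) and 65 rose (16.3%), against 9.65% and 6.71% of 1461 other sites. In the lowest class, 10 of 158 clustered sites fell (6.33%) and 9 rose (5.70%), against 4.18% and 1.53% of 1700 other sites. In the middle class, 16 of 230 fell and 16 rose (6.96% each), against 6.70% and 3.01% of 1628. For clustered sites as a whole the share of rises was larger than for other sites in each class. In clusters of 2 or 3 alone, 5 of 144 sites rose in the lowest class (3.47%), 5 of 210 in the middle (2.38%) and 29 of 347 in the highest (8.36%). In the middle class this was below the 3.01% of other sites, and in the other two it was above.

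Within a cluster, reads were unevenly divided. The leading site, the member with the highest mean count over all 6 libraries, held 64.4% and 64.7% of all cluster reads in DMSO, 66.4% and 67.2% after 2 h, and 67.3% and 67.0% after 4 h. All 4 treated columns were above both controls, by 2.28 points at 2 h and 2.64 at 4 h (two-sided exact permutation p = 0.333 each, the smallest possible). In clusters of 2 or 3 the differences were 5.22 and 5.85 points. These include the near-constant leading sites chr1:121484990-121485390 (4842 and 4496 reads in DMSO, 4720 and 4715 at 4 h) and chr7:61968821-61969221 (2639 and 2368, 2413 and 2540). A steady count gains share where other counts fall, and differences without these sites are not given here for clusters of 2 or 3. The next values are for clusters of all sizes. With the 20 highest sites taken out as single sites, which removes leading members and leaves their neighbours, the differences were -0.475 and -0.0498 points. With the clusters that hold such a site left out whole, they were 1.35 points (p = 0.667) and 1.91 points (p = 0.333, exact permutation). In clusters of 2 or 3 the leading sites had a median mean count of 43.4 and the remaining sites 24.0. At 4 h, 25 of 344 leading sites fell (7.27%) and 27 rose (7.85%) there, and 29 of 357 remaining sites fell (8.12%) and 12 rose (3.36%). Treated columns entered the choice of leading site, so a member that kept its reads was more likely to be chosen. The larger treated share and the rises at leading sites are thus partly built in. Over all sites tested, 6.73% fell and 4.72% rose.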

How the data were processed

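The authors deposited whole-number read counts for each site without normalization. The submitters' processing notes name the hg19 build and Bowtie2, Trimmomatic 0.32, Genrich 0.6.1, deepTools, DiffBind and DESeq2. What each tool did, its settings, and how sites were chosen were not given in the sources used here. Members, size classes and lists were chosen with earlier results of these data known.

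All 6 count columns were used, and 0 others were set aside. Column names do not state crosslinking. Both DMSO columns were assigned to the crosslinked group, the only DMSO group with 2 samples, and the library made without crosslinking was not analysed here. No label links the letters A and B to replicate numbers. Positions are as deposited, and may be off by 1 base since no source says whether starts are counted from 0. No sequence or annotation of hg19 was used, so motifs and genes were not analysed here.

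Gaps were taken from the coordinates, leaving out chromosome Y. Low sites were removed with edgeR 4.0.16 (filterByExpr, count of at least 10, total of at least 15), and the rest were tested with its quasi-likelihood test in R 4.3.3. One fit of all 6 columns had treatment as the only term, with Benjamini-Hochberg adjustment over all sites at 0.05. The relative fit took library sizes from reads in sites, adjusted by TMM, and the raw fit gave all libraries the same size. SE is the absolute log2 change divided by the square root of F. For cluster units, counts were summed over each cluster. Shares of reads were compared by exact permutation. The scripts were tested on simulated data. Alternatives were DESeq2 1.42.0, limma-voom (limma 3.58.1), a column-letter block, other filters, gap limits and scalings, and leaving out each library.

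Named by rule were the 6 clusters with the most sites, and the 6 largest relative falls and rises of clustered sites per time among calls with treated columns on 1 side of both controls in shares. So were the 5 highest sites in DMSO, the 5 largest falls and rises of clusters per time, and up to 5 clusters that hold both. Neighbours and members of these, and the 3 exceptional clusters, were added after their values were seen.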

Additional observations from a re-analysis of the deposited data

How the results depend on the processing

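Each library's reads in sites set the precision: clustered sites had a median of 15 to 60 reads per library, 2 columns per group, and the 4 h columns agree within counting noise. In what follows, counts are calls among clustered sites or clusters. Here and above, calls under alternatives are given without shares over all sites, so they show sensitivity only. With DESeq2, the relative fit called 5 sites after 2 h and 10 after 4 h (82 and 144 in edgeR), cluster calls 3 and 7 (46 and 82), and raw calls at 2 h 7 (4 in edgeR). With limma-voom, raw calls at 2 h were 24. With a replicate block by column letter, relative calls were 39 and 87, cluster calls 14 and 49, and raw calls 0 at both times. The letters did not pair the libraries (correlations of deviations between -0.204 and 0.013 at all tested sites, and between -0.394 and 0.035 at clustered sites). With a gap limit of 5000 bases, relative calls were 47 and 85, raw calls 2 and 16, and cluster calls 24 and 38. With 20000 bases, raw calls were 11 and 77 and cluster calls 76 and 131. With the 4 h columns summed as 1 library, raw calls were 0 at both times, and with only the compared groups they were 0 at 2 h and 166 at 4 h. Leaving out 1 library at a time gave 18 to 126 relative calls at 2 h, 50 to 181 at 4 h, 0 to 242 raw calls at 2 h, 0 to 166 at 4 h, and 7 to 42 and 30 to 96 cluster calls. Scaling on totals gave 30 falls and 17 rises of clusters at 2 h and 55 and 33 at 4 h. Without clusters of 4 or more sites, an alternative added after seeing the data, 40 sites fell and 37 rose at 2 h and 59 and 50 at 4 h.

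The clustered minus other difference in median relative log2 was 0.077 at 2 h and 0.088 at 4 h. By library, clustered minus other medians were -0.041 and -0.050 in DMSO, -0.020 and 0.023 after 2 h, and 0.050 and 0.026 after 4 h. Their SD pooled within groups was 0.020, which includes the 4 h columns, counted above as 1 sample. Without clusters of 4 or more, the difference at 2 h and 4 h was 0.0241 and 0.00812. It was 0.105 and 0.143 with a limit of 5000 bases, 0.039 and 0.030 with 20000 bases, and 0.120 at 4 h without a filter. Leaving out 1 library gave 0.056 to 0.095 at 2 h and 0.071 to 0.117 at 4 h. Without the 20 highest sites, the leading-site share changed by -0.475 points at 2 h and -0.0498 at 4 h in place of 2.28 and 2.64, and by 1.35 and 1.91 where the clusters holding those sites were left out whole. The cause was not tested for any of these. The 4 h against 2 h comparison gave 0 calls under every alternative run. For the main results, 117 alternatives left the result the same, 56 moved it and 2 reversed it. For sites and clusters named by rule, 579 alternatives kept the call and 64 lost it, 17 of these with DESeq2 and 15 without DMSO B, and 0 reversed. Several of the naming rules picked the largest changes in these same data.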
